A study of Homo sapiens with 4 samples.

Results

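The cells described here are the 121 cells of the 72 h paclitaxel library in which 4 stress genes, ATF3, DDIT3, GADD45A and PMAIP1, took the largest share of the captured RNA. They come from 485 cells with at least 20000 UMIs (unique molecular identifiers, each standing for 1 captured RNA molecule), among 526 barcodes of that library and 3194 of the whole series. For each cell the UMIs of the 4 genes were summed and divided by the total, and the ranked cells were divided into 4 bins of 121 or 122. The highest 25% (the stress-high bin) were set against the lowest 25% (the stress-low bin, also 121 cells). Since the members were chosen by the measured levels of these 4 genes in this library, every comparison of the highest with the stress-low bin is a description, with no test.

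The series profiled single HCC1143 cells, an established human line of basal-like, triple-negative breast carcinoma, on the 10x Genomics droplet platform. Cells were given either the solvent DMSO or 1 nM paclitaxel, a drug that stabilises microtubules, and were collected after 24 h or 72 h, which gives 4 groups of 1 library each. All groups share the 1 line and its growth medium, so nothing here shows how another line or another culture would vary. The libraries held 526 to 1102 barcodes and 34997421 to 72057374 UMIs, the 72 h paclitaxel library holding the fewest of both; it shared no barcode with another library, and up to 4 barcodes were shared between the others. The 4 libraries are named below by treatment and time, as DMSO 24 h or paclitaxel 72 h.

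When a cell meets misfolded protein, lack of amino acids or other stress, kinases phosphorylate the translation initiation factor eIF2-alpha; most protein synthesis slows while ATF4, a transcription factor, is made in larger amounts. This integrated stress response switches on ATF3 and DDIT3, and DDIT3 (CHOP) is known for turning prolonged stress towards cell death. ATF3 is a transcription factor of the ATF and AP-1 families. GADD45A is a growth arrest protein induced by DNA damage and other stresses, and PMAIP1 encodes NOXA, a BH3-only protein that binds the survival protein MCL1. In the GENCODE 29 annotation of GRCh38, ATF3 lies at chr1:212565334-212620777 and GADD45A at chr1:67685061-67688338, both on the plus strand. DDIT3 lies at chr12:57516588-57521737 on the minus strand and PMAIP1 at chr18:59899948-59904306 on the plus strand; all 4 are protein-coding, and the counts are per whole gene.

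Promoter sequence is shown for 6 genes of the stress programmes discussed below because it holds a short motif of the transcription factors named after it. The windows come from RefSeq promoters of GRCh38.p14, which run from 250 bases before to 50 bases after each gene start, and are written 5′ to 3′ on the strand of the gene with the motif in capitals. The first start listed for each gene was used, and for DDIT3 and SLC3A2 it lies inside the longer gene of GENCODE 29. Of the 4 ranking genes, ATF3, DDIT3 and PMAIP1 were in that table. The 5 motifs searched on both strands were CRE (TGACGTCA, bound by CREB and ATF dimers), AP-1 (TGANTCA, bound by FOS and JUN dimers), the C/EBP-ATF composite core (TGATGCAA, bound by ATF4 with C/EBP partners), the CCAAT box (CCAAT, bound by NF-Y) and the ER stress element (CCAAT and CCACG with any 9 bases between them, bound by NF-Y with ATF6, and containing a CCAAT box). ATF3 had only a CCAAT box in this window and PMAIP1 none of the 5, which says only that these letters are not there.
DDIT3, AP-1, chr12:57520729-57520764, minus strand: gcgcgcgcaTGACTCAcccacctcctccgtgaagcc
SLC3A2, AP-1, chr11:62881642-62881688, plus strand: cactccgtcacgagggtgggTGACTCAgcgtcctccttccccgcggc
PPP1R15A, CRE, chr19:48872343-48872390, plus strand: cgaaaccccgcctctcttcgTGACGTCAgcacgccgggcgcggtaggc
AREG, CRE, chr4:74445051-74445098, plus strand: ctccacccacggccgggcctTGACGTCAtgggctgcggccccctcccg
HSPA5, ER stress element, chr9:125241371-125241429, minus strand: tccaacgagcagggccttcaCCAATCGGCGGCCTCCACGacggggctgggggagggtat
XBP1, ER stress element, chr22:28800583-28800641, minus strand: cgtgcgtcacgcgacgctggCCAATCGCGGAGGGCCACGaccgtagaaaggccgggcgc

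Among all 27305 RefSeq promoters of this length, 1.98% held the CRE, 7.76% the AP-1 motif, 0.923% the C/EBP-ATF core, 35.7% the CCAAT box and 0.0806% the ER stress element. Of the 8500 genes measured here 6962 (81.9%) had a promoter in the table, and 3.61% of these held the CRE, 4.29% the AP-1 motif, 0.503% the C/EBP-ATF core and 37.3% the CCAAT box. Of the 951 genes defined below as higher in the stress-high cells, 777 (81.7%) had one, and 5.41% of these held the CRE, 5.66% the AP-1 motif, 0.644% the C/EBP-ATF core and 40.0% the CCAAT box. For the genes defined as lower only 76.3% had a promoter, so their shares are less comparable. Of these, 1.55% held the CRE, 2.66% the AP-1 motif, 0.222% the C/EBP-ATF core and 35.0% the CCAAT box. The ER stress element was in 10 of the 6962 measured genes with a promoter (0.144%) and in 2 of the 777 higher ones (0.257%). Of 39 listed genes of the ATF4-type integrated stress response 30 had a promoter. Among these 1 held the CRE, 3 the AP-1 motif and 1 the C/EBP-ATF core. A match is a run of letters and not a measured binding site.

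The 4 ranking genes together stood at 588 to 10775 counts per 1000000 UMIs (CPM) in the stress-high bin, with a median of 1102 CPM, and at 0 to 148 CPM in the stress-low bin, with a median of 92.0 CPM. A median cell of the stress-high bin carried 67 UMIs of the 4 genes and a median cell of the stress-low bin 5. The 3 cells just inside the stress-high bin had 588, 591 and 595 CPM and the 3 just outside had 563, 567 and 587 CPM; at the lower limit the values were 148.0, 148.1 and 148.2 CPM inside and 148.8, 148.8 and 151.9 CPM outside. The class is defined by a limit on a score, and whether it is a separate state of the cells was not tested.

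GADD45A supplied the largest part of the score, with 46.1% of the UMIs of the 4 genes over all 485 cells, followed by PMAIP1 with 25.8%, ATF3 with 15.3% and DDIT3 with 12.8%. The median cell level of GADD45A over the 4 bins, from lowest to highest, was 29.02, 76.2, 176 and 519 CPM. ATF3 stood at 12.7, 34.9, 42.8 and 108 CPM and PMAIP1 at 22.6, 39.4, 80.1 and 187 CPM in the same order. DDIT3 stood at 11.3, 38.02, 36.3 and 68.9 CPM, so that its middle bins were in no order. A UMI of each of the 4 genes was found in 28, 66, 75 and 83 cells of the bins. Thus 83 of the 121 stress-high cells had all 4 and the remainder lacked at least 1 of the genes that chose them, while 3 cells of the stress-low bin had none of the 4.

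**Figure D1:**
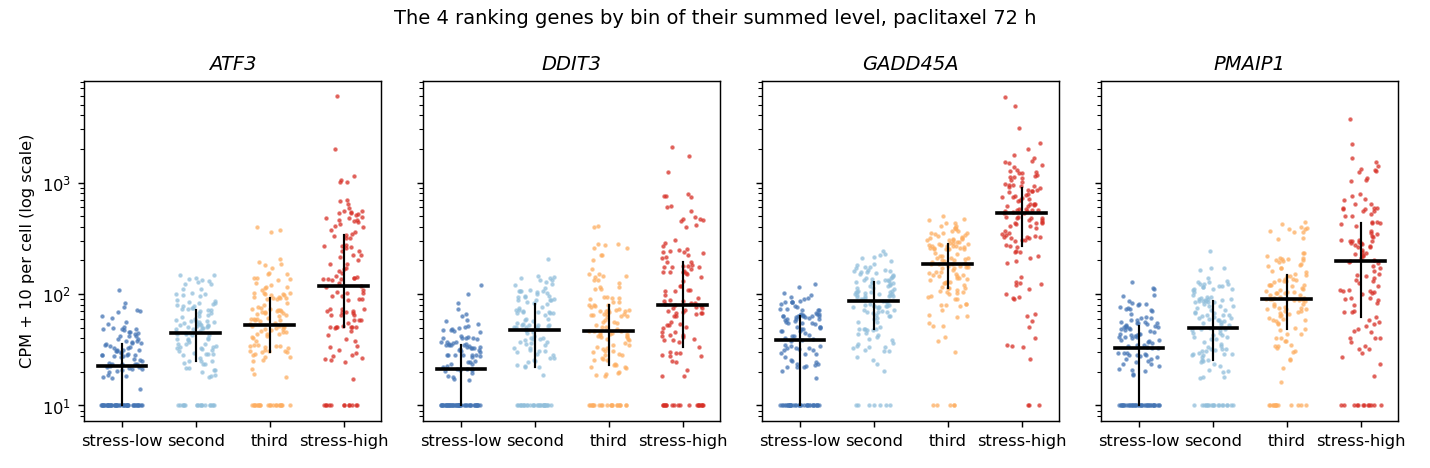
Level of ATF3, DDIT3, GADD45A and PMAIP1 in each cell of the 4 bins of the 72 h paclitaxel library, as CPM + 10 on a log axis; each point is 1 cell, the horizontal bar is the median and the vertical bar spans the quartiles. GADD45A has the highest median in the stress-high bin (519 CPM), and cells at 0 CPM of a single gene are present there too.

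Within the class, the 10 cells with the most UMIs of the 4 genes held 3613 of 11898 of them (30.4%); these cells were picked by the same UMIs, which also grow with the depth of a cell. Across the 485 cells the genes were only weakly tied to each other, with Pearson's r of log2(CPM + 10) from 0.08 for DDIT3 with PMAIP1 to 0.34 for ATF3 with GADD45A; the cells share 1 library and the values share sampling noise at low counts. Each gene was also read in cells ranked on the other 3 genes. ATF3 was then at 183 CPM in the highest and 32.6 CPM in the stress-low bin (5.62-fold), PMAIP1 at 310 and 58.6 CPM (5.29-fold), GADD45A at 512 and 124 CPM (4.12-fold) and DDIT3 at 122 and 30.6 CPM (3.98-fold). The medians over cells in this reading were 80.3 against 18.2 CPM for ATF3, 107 against 32.4 CPM for PMAIP1, 311 against 53.6 CPM for GADD45A and 57.7 against 20.1 CPM for DDIT3. The UMIs of each cell were also split at random into equal parts, and the cells were ranked in each part. The same cells held 104 of 121 places in the stress-high bin (86.0%) and 86 of 121 in the lowest (71.1%). No cell ranked highest in one part was lowest in the other, and the reverse direction was not counted. Both parts come from the UMIs that chose the cells, so this describes sampling noise of the score and is no support for a class.

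Depth differed little between the ends, with a median of 57260 UMIs (range 20386 to 306725) and 6996 detected genes in the stress-high bin and of 62091 UMIs (range 20269 to 241225) and 7201 genes in the lowest. Scrublet marked 4 cells of the highest and 3 of the stress-low bin as doublets. The 8 epithelial markers checked were present in both, for example KRT8 at 830 and 499 CPM and EPCAM at 421 and 295 CPM. Of the fibroblast, leukocyte and endothelial markers, COL1A2, DCN, LUM, PDGFRB, CD3E, MS4A1 and PECAM1 are not among the genes of this table. The others were at 0.231 to 11.8 CPM in the stress-high bin, PTPRC at 0.231 CPM, except CD68. CD68, a lysosomal protein abundant in macrophages, stood at 35.6 CPM in the highest and 10.8 CPM in the stress-low bin.

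For every gene the UMIs were summed over the cells of a bin, and the log2 ratio of CPM of the highest to the stress-low bin was taken. The measured genes are the 8500 whose mean of the highest and stress-low bins was 10 CPM or more. A gene under this minimum in either bin passed only through the other, and could be called only in that direction. The same holds for the 50 CPM minimum used below. Under 10 CPM in the stress-low bin were, for example, SESN2, RSAD2, TP53BP2, AEN, DNAJB4 and HSF2. GINS2 was under 10 CPM in the stress-high bin. These genes are part of the counts and medians of their lists. The median of the ratio over the measured genes was 0.17, and was subtracted to give the relative log2 ratio used from here on. A gene is called higher or lower when this ratio reached 1.5-fold and its exact 95% interval, which covers counting error only, left out 0; 951 genes (11.2%) were higher and 591 (6.95%) were lower, the ranking genes not counted. Without the subtraction 1565 genes were higher and 235 lower. The middle 50% of all genes lay between -0.28 and 0.30. These shares are the background against which each list below is read.

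Of 33 measured genes of the ATF4 branch of the integrated stress response, 10 were called higher in the stress-high cells and none was called lower, and the list median was 0.41 against 0 for all genes. PPP1R15A encodes GADD34, which directs the phosphatase that reverses eIF2-alpha phosphorylation. Its median cell level was 107 CPM (quartiles 43.25 to 198) in the highest and 24.8 CPM (12.3 to 47.97) in the stress-low bin. The quartiles of the 2 groups hardly overlapped, and its summed level over the 4 bins was 32.3, 55.4, 68.7 and 164 CPM, a relative log2 ratio of 2.17 (95% interval 1.98 to 2.36). SLC3A2, the heavy chain shared by several amino acid transporters, had a median of 162 against 55.5 CPM and a ratio of 1.79 (1.66 to 1.92). DDIT4, an inhibitor of mTORC1, had medians closer to each other, 80.2 and 52.96 CPM, while its ratio of sums was 1.69 (1.56 to 1.82); 1 cell held 10.5% of its UMIs in the stress-high bin. SESN2, a stress protein that also restrains mTORC1, had a ratio of 1.31.

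Members of the same branch that serve amino acid supply were also higher. ASNS, the asparagine synthetase, was at 38.1 against 19.5 CPM (0.80), PHGDH and PSAT1, enzymes of serine synthesis, had ratios of 0.88 and 0.59, and the pseudokinase TRIB3 was at 93.3 against 44.6 CPM (0.89). ATF4 itself, which is controlled mainly at translation, was at 686 against 469 CPM, a ratio of 0.38 (0.32 to 0.44), below 1.5-fold. Of 20 measured cytosolic tRNA synthetases, which include ATF4 targets, 5 were higher, MARS at 0.84 and YARS at 0.83 among them, and QARS was lower at -0.83. The list median of the synthetases was 0.13.

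In the endoplasmic reticulum branch, 5 of 29 measured genes were higher and none lower, with a list median of 0.25. DNAJB9, a chaperone partner induced by XBP1, was at 40.0 against 13.3 CPM (1.42). XBP1, the transcription factor made by IRE1 splicing, had a median cell level of 80.2 CPM (quartiles 42.7 to 204) against 46.3 CPM (22.8 to 72.3) and a ratio of 1.36. HERPUD1, a part of the degradation machinery of the reticulum, had a ratio of 0.99, which was 0.47 in cells called G1 only. HSPA5, the chaperone BiP, had a median of 124 against 57.8 CPM and a ratio of 0.85, which dropped to 0.29 when each cell was weighted alike, and 1 cell of the stress-low bin stood at 8075 CPM. Most chaperones of the list, such as CALR at 0.36 and HSP90B1 at 0.54, did not reach 1.5-fold.

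Among the lists in the plot of gene lists, the AP-1 and immediate early genes had the highest median, at 1.06, with 19 of 28 measured members higher and none lower. GADD45B, a relative of GADD45A, was at a median of 96.4 CPM (quartiles 35.9 to 229) against 30.7 CPM (16.5 to 71.3) and had a ratio of 2.56 (2.41 to 2.72). KLF4, a zinc finger factor of epithelial differentiation, was at 60.1 against 13.8 CPM at the median and had a ratio of 2.08. The mRNA decay protein ZFP36 had a ratio of 1.79 and the kinase SGK1 one of 1.77. JUN was at 274 against 82.0 CPM (1.57), JUNB at 215 against 83.5 CPM (1.19) and FOSL1 at 93.7 against 39.2 CPM (1.09). FOS (0.09), FOSL2 (-0.22) and JUND (-0.24) did not reach 1.5-fold, so the AP-1 subunits differed among themselves.

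**Figure D2:**
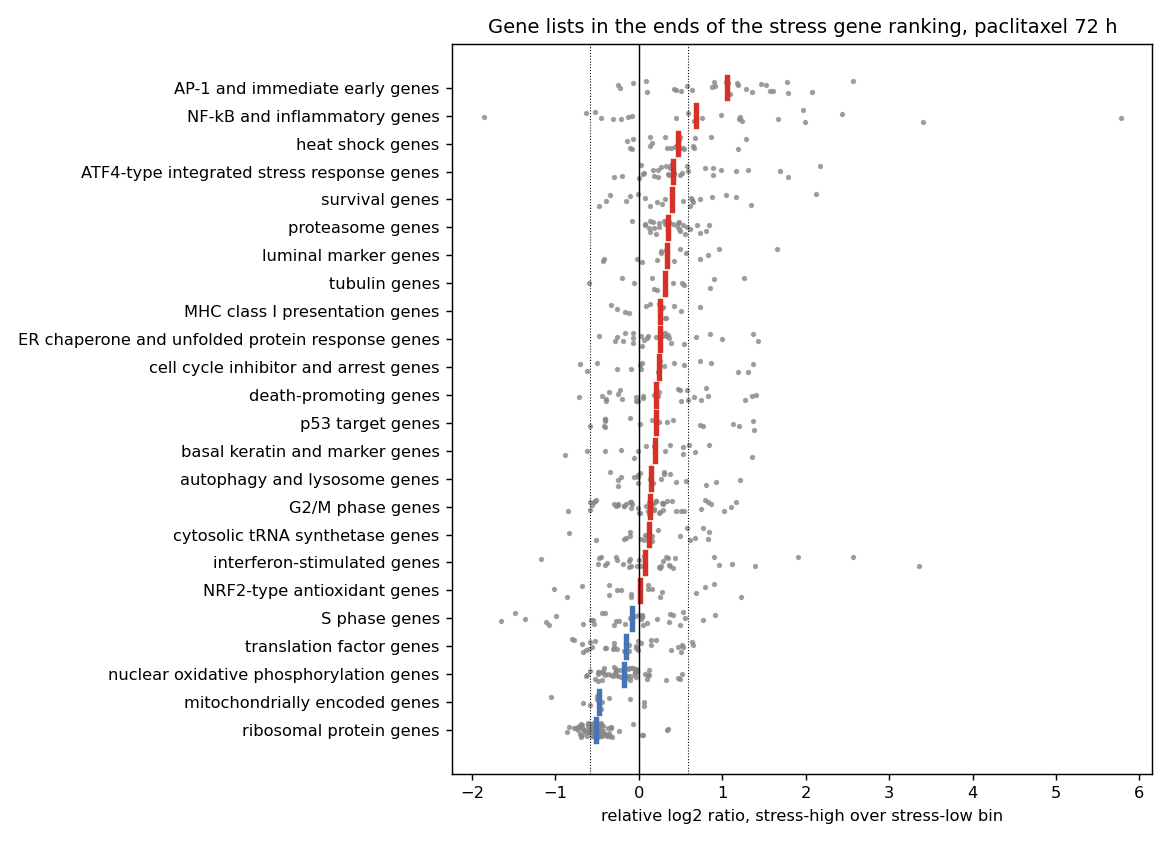
Relative log2 ratio of the highest over the stress-low bin for the measured members of 24 gene lists in the 72 h paclitaxel library; each point is a gene, the coloured bar is the list median and the dotted lines mark 1.5-fold. The AP-1 and immediate early genes have the highest median (1.06) and the ribosomal protein genes the lowest (-0.51).

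Of 23 measured NF-kB and inflammatory genes 14 were higher and 2 lower, with a list median of 0.68. This median was 0.13 among members averaging 50 CPM or more. CCL5, CCL20 and CXCL3, at 1.61, 2.11 and 7.81 CPM in the stress-low bin, passed the 10 CPM minimum only through the stress-high bin. They could not be called lower, yet they are part of the count and the median. CCL5 passed the 50 CPM minimum in the same way, as did all others of the 12 genes with the highest ratios except CXCL8. CXCL8, the neutrophil chemokine interleukin 8, was at 73.6, 139, 153 and 449 CPM over the bins, a ratio of 2.44 (2.31 to 2.57), but its medians were 48.4 and 26.7 CPM and its highest cell reached 22204 CPM. CXCL3 had a ratio of 1.99. The chemokine CCL5 was at 99.3 against 1.61 CPM, the highest ratio of any gene averaging 50 CPM or more at 5.77 (4.99 to 6.69). Its median was 0 CPM at both ends and 1 cell gave 29.6% of its UMIs in the stress-high bin. In cells thinned to 20000 UMIs, CCL5 was detected in 10.7% of the highest and 1.65% of the stress-low bin. CCL20 came at 69.3% from 1 cell, and its ratio of 3.41 became 0.57 when DDIT3 was left out of the ranking. LTB, lymphotoxin beta, was lower, at 42.1 against 135 CPM (-1.85), 1 cell of the stress-low bin reaching 3455 CPM.

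Interferon-stimulated genes had a list median of 0.08, close to that of all genes, although 7 of 35 were higher and 1 lower. The antiviral genes IFIT2, RSAD2, IFIT3 and IFIT1 had ratios of 3.36, 2.57, 1.91 and 1.40. IFIT2 was detected in 19.8% of thinned cells of the highest and in 18.2% of the stress-low bin, and 1 cell held 28.1% of its UMIs, so its sum of 139 against 12.02 CPM came from few cells. IFI6 stood at 0.01. All cells come from 1 line, so no cell type that lacks these genes was at hand to set the level that free RNA gives to such shares. Of 14 measured MHC class I presentation genes only HLA-E was higher, at 0.73, while B2M was at 0.33.

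Genes that stop the cell cycle were mixed. CDKN1A, the p21 inhibitor and a p53 target, had a median of 134 CPM (quartiles 61.7 to 215) against 31.6 CPM (17.0 to 62.4) and a ratio of 1.38 (1.23 to 1.53). Its summed level was 59.9, 80.6, 113 and 175 CPM over the bins. SFN, the 14-3-3 sigma protein that holds cells in G2, had a median of 489 CPM (207 to 865) against 149 CPM (72.8 to 248) and a ratio of 1.37 (1.29 to 1.45). CDKN1B, the p27 inhibitor, had 1.32 and the antiproliferative TOB1 1.19. Of 18 inhibitor and arrest genes 5 were higher and 2 lower, RB1 at -0.71 and RBL2 at -0.62, both of the retinoblastoma family. Of 18 measured p53 targets 6 were higher and 1 lower, and the list median was 0.20. SERTAD1 and PLK2 had ratios of 1.37 and 1.13, PLK2 falling to 0.58 in cells called G1 only. MDM2 (0.24), RRM2B (0.02), ZMAT3 (-0.41) and FDXR (-0.41) did not reach 1.5-fold and DDB2 was lower (-0.59).

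Death-promoting genes had a list median of 0.21, with 8 of 28 measured members higher and 1 lower, of 40 listed. BCL2L11 and HRK encode the BH3-only proteins BIM and Harakiri, with ratios of 1.41 and 1.28, and BIK, another BH3-only gene, had 0.66. BCL2L11 was at 27.1, 31.9, 28.2 and 81.0 CPM over the bins; its median cells differed little, at 22.7 and 20.1 CPM, and its upper quartiles were 93.7 and 44.2 CPM. HRK was at 12.4, 16.5, 19.6 and 33.8 CPM. Of the pore-forming proteins, BAK1 had a median of 54.9 against 28.6 CPM and a ratio of 0.81 (0.60 to 1.02), BAX one of -0.39, below 1.5-fold, and BOK was lower at -0.72. TNFRSF10B, the death receptor DR5 and a known DDIT3 target, was at 11.3, 15.3, 19.3 and 22.6 CPM over the bins and had a ratio of 0.83. It was detected in 33.1% of thinned cells of the highest and in 18.2% of the stress-low bin. TP53BP2 (0.74) and DAPK3 (0.59) were also among the higher members, TP53BP2 lying at 0.54 to 0.56 under 4 of the alternatives.

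Survival genes had a list median of 0.40, with 10 of 23 measured members higher and none lower, of 32 listed. The kinase PIM1 was at 30.6, 59.4, 76.3 and 151 CPM over the bins, with a median of 97.9 CPM (quartiles 44.2 to 200.3) against 20.8 CPM (0 to 48.5) and a ratio of 2.13 (1.93 to 2.33). TNFAIP3, the A20 protein that restrains NF-kB, had 1.35 and TMBIM1 1.16. IER3 was abundant at both ends, 851 against 366 CPM (1.04), with medians of 402 and 306 CPM. The small heat shock protein HSPB1 had 0.87. Of the BCL2 family, BCL2L1 had 0.65 and MCL1, the partner of NOXA, 0.63. PIM3 (0.73) was at 0.36 without cells under 2% mitochondrial UMIs. CFLAR (0.53), BIRC3 (-0.11) and XIAP (-0.15) did not reach 1.5-fold. Death-promoting and survival genes were thus both among the genes called higher, and the difference between their medians was not tested. The interval over members was -0.035 to 0.572 for the death-promoting and 0.077 to 0.648 for the survival median. With totals that left out RPL, RPS and MT- genes the order was reversed, at 0.354 for death-promoting and 0.322 for survival genes.

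Ribosomal protein RNA took less of the total in the stress-high cells. The median share of UMIs from RPL and RPS genes over the bins was 33.3%, 27.2%, 26.1% and 25.02%, with quartiles of 27.4 to 38.7% in the lowest and 19.98 to 29.9% in the stress-high bin. The groups overlapped, since cells of the stress-high bin ranged from 7.93 to 42.8%. The score divides by total UMIs, which include these genes, so a low ribosomal share by itself raises a score. With the score taken over UMIs of genes other than RPL, RPS and MT-, the difference in medians was -7.20 percentage points, against -8.30 in the main ranking. Of 82 measured ribosomal genes none was higher and 25 were lower, and the list median was -0.51. RPS9 was at -0.86 and RPL3 at -0.84, while RPL22L1 and RPS27L, a p53 target, were at 0.35 and 0.33. The elongation factor EEF1A1 had a median of 3345 against 5586 CPM and a ratio of -0.81, and the initiation factor subunit EIF3F one of -0.77. EIF4E, the cap-binding protein, was higher at 0.65.

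Mitochondrially encoded genes made up a median of 7.04%, 6.68%, 6.71% and 6.02% of UMIs over the bins, so the ends differed less than the quartiles within them (5.16 to 8.73% in the lowest, 3.38 to 8.02% in the highest). The tails differed in both directions: 21 cells of the stress-high bin and 10 of the lowest were under 2%, and no cell of the highest and 3 of the lowest were at 20% or more, one of them at 94.0%. Of 13 mitochondrially encoded genes 3 were called lower and none higher, and the list median was -0.47. These were MT-ND6 (-1.05), MT-CO3 (-0.67) and MT-CO1 (-0.59), and the cytochrome oxidase pair fell short of 1.5-fold without the cells under 2%, at -0.46 and -0.40. The 49 nuclear genes of oxidative phosphorylation had a median of -0.18, with 3 lower and none higher. The nuclear RNA MALAT1 was at -0.31 and NEAT1 at -0.06.

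**Figure D3:**
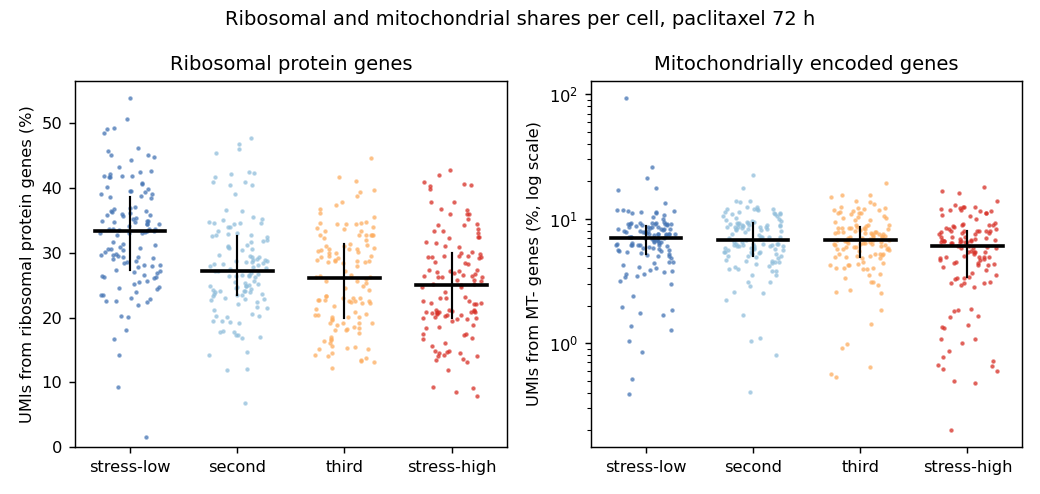
Percent of UMIs per cell from ribosomal protein genes (left, linear axis) and from mitochondrially encoded genes (right, log axis) in the 4 bins of the 72 h paclitaxel library; points are cells, the horizontal bar is the median and the vertical bar spans the quartiles. The ribosomal median falls from 33.3% to 25.02% over the bins, and 21 cells of the stress-high bin lie under 2% mitochondrial UMIs.

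Cell cycle phase was called in cells thinned to 20000 UMIs. S phase was called in 14.9% of stress-high cells (exact 95% interval 9.06 to 22.5%) and in 22.3% of the stress-low bin (15.2 to 30.8%), so the intervals overlapped; without thinning the shares were 13.2% and 24.8%. With 10% of cells at each end the difference was 2.08 percentage points in the other direction. G2/M was called in 19.0% and 18.2% and G1 in 66.1% and 59.5%. Among 34 measured S phase genes 7 were lower and 2 higher, with a median of -0.08. CDCA7 had -1.64, the replication initiation gene GINS2 -1.48 and the chromatin remodeller HELLS -1.36; in cells called G1 only, GINS2 was at -0.51 and HELLS at -0.58. Among 51 G2/M genes 7 were higher and 2 lower, with a median of 0.13. CDC20, the activator of the anaphase-promoting complex, had 1.16 and was at 0.48 in cells called G1 only, and HMGB2 had 1.02. MKI67 (-0.24) and TOP2A (-0.56), widely used markers of dividing cells, did not reach 1.5-fold.

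Other stress lists were mixed, beside 11.2% higher and 6.95% lower among all genes. Heat shock genes had a median of 0.47 with 6 of 24 higher and none lower, led by DNAJB4 (1.28, and 0.52 in cells called G1 only) and HSF2 (1.19). DNAJB4 and HSF2 were at 8.55 and 9.05 CPM in the stress-low bin, so they could not be called lower. Proteasome subunits had a median of 0.35, with 5 of 31 higher and none lower. Of 20 autophagy and lysosome genes 3 were higher, GABARAPL1 at 1.21, MAP1LC3B at 0.93 and CTSL at 0.81, the latter pair falling to 0.44 and 0.43 when ATF3 was left out of the ranking. Antioxidant genes of the NRF2 type had a median of 0.01, with 4 of 18 higher and 3 lower. HMOX1, the haem oxygenase, was higher at 1.23 and ABCC3 lower at -0.86. Among 12 measured tubulin genes, whose protein is the target of paclitaxel, 3 were higher and 1 lower: TUBB2A was at 53.2 against 19.7 CPM (1.26), while the abundant TUBB was at -0.06.

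Keratin and junction genes moved unevenly. Of 17 basal genes 4 were higher and 2 lower, with KRT6A, a keratin of stressed and wounded epithelium, at 1.36 and KRT5 at -0.05. Of 16 luminal genes 4 were higher and none lower. The tight junction gene CLDN4 had 1.65 and the luminal transcription factor GATA3 0.96, which was 0.45 in cells called G1 only.

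The other genes with the highest ratios included the vasodilator peptide ADM at 116.9 against 13.1 CPM (2.98, and 0.47 when ATF3 was left out of the ranking), the growth factor AREG at 154 against 28.1 CPM (2.28) and the snoRNA host SNHG12 at 218 against 40.8 CPM (2.25). ADM and AREG each had over 28% of these UMIs in 1 cell, 28.8% and 28.1%. SNHG12 was more evenly spread, with medians of 98.1 against 26.8 CPM. At the other end, the non-coding RNA LINC01297.1 had the lowest ratio of those averaging 50 CPM or more (RPL, RPS and MT- genes left out), -3.08, at 126, 45.5, 38.4 and 16.8 CPM over the bins. TNS3, a focal adhesion protein, was at a median of 16.2 CPM (quartiles 0 to 36.7) against 44.0 CPM (13.4 to 104) and a ratio of -1.59 (-1.80 to -1.38). The NOTCH receptor NOTCH3 was at 307, 284, 206 and 140 CPM (-1.30), its ligand gene JAG2 at -0.95, and the WNT antagonist SFRP1 at 210, 194, 137 and 112 CPM (-1.08). ATAD2, a chromatin protein of S phase, was at -0.99, and at -0.19 in cells called G1 only.

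**Figure D4:**
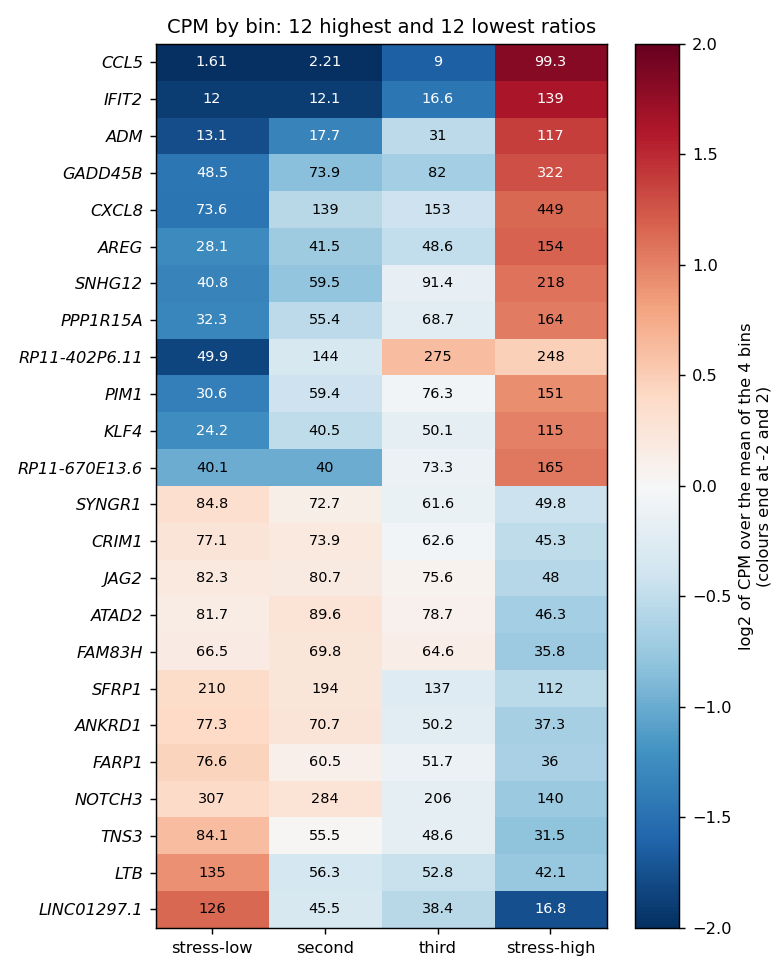
CPM of summed UMIs in the 4 bins for the genes at the ends of the relative log2 ratio (12 highest, 12 lowest) of those averaging 50 CPM or more; numbers are CPM and the colour is the log2 ratio to the mean of the 4 bins. PPP1R15A, PIM1, KLF4 and SNHG12 are higher in each bin than in the one before, whereas CCL5 and IFIT2 are high in the stress-high bin only. Of the 12 highest, all except CXCL8 were under 50 CPM in the stress-low bin and passed the minimum only through the stress-high bin.

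Cells above the lower limit of the stress-high bin, 588 CPM of the 4 genes, were few in the other libraries. They were 16 of 1081 cells in DMSO 24 h (1.48%, exact 95% interval 0.848 to 2.39%) and 28 of 751 in paclitaxel 24 h (3.73%, 2.49 to 5.34%). In DMSO 72 h they were 4 of 769 (0.520%, 0.142 to 1.33%), against 24.9% in paclitaxel 72 h by the choice of the limit. In cells thinned to 20000 UMIs the shares were 1.30%, 4.26%, 0.390% and 25.4%. The median score was 92.1, 87.6, 55.9 and 300.1 CPM in the same order. GADD45A was at 57.8, 78.6, 30.2 and 246 CPM and ATF3 at 15.04, 19.8, 8.21 and 81.8 CPM in the libraries. DDIT3 was at 19.7, 21.7, 13.6 and 68.4 CPM and PMAIP1 at 34.2, 42.4, 27.7 and 138 CPM. The limit was set in the 72 h paclitaxel library, which fixes its share near 25%, so no interval is set against that share. With 1 library per group the intervals of the other libraries say nothing of the spread between cultures.

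The same ranking was made within each other library, where the rule had not been used. The median score there was 150.3 to 291 CPM in the highest 25% and 14.5 to 32.7 CPM in the lowest 25%, so that these medians lie below the 588 CPM limit of the stress-high cells. The highest 25% were deeper, with medians of 62421 against 54948.5 UMIs in DMSO 24 h and 67326 against 51171 in paclitaxel 24 h. In DMSO 72 h they were 59734 against 50675.5. No UMI of the 4 genes was found in 42, 23 and 80 cells of these libraries, in that order. The part of depth and of low counts in the gene values there was not tested. Fewer genes were called higher or lower: 146 (1.80%) and 59 (0.726%) in DMSO 24 h, 383 (4.82%) and 545 (6.86%) in paclitaxel 24 h, and 224 (2.83%) and 169 (2.14%) in DMSO 72 h. Across genes the relative log2 ratios had a Pearson's r with those of paclitaxel 72 h of 0.52 (7703 genes), 0.54 (7750 genes) and 0.32 (7622 genes); genes are not independent, and the rankings share their 4 genes. Of the genes higher in paclitaxel 72 h and measured in both, 11.03%, 24.8% and 12.7% were also higher there, which was 56.0%, 46.9% and 39.0% of the genes higher in those libraries.

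Several of the genes above were also higher in the rankings of the other libraries. PIM1 had relative log2 ratios of 1.15, 1.04 and 1.06 in the libraries of DMSO 24 h, of paclitaxel 24 h and of DMSO 72 h, in that order, SFN of 0.82, 1.41 and 0.61, and CXCL8 of 3.43, 1.42 and 2.88. PPP1R15A was at 0.79, 1.25 and 0.54, the last below 1.5-fold. Other genes did not reach 1.5-fold there. DDIT4 had 0.09, 0.44 and 0.04, BCL2L11 0.07, -0.36 and -0.35, and IER3 0.13, -0.42 and -0.42, against 1.69, 1.41 and 1.04 in paclitaxel 72 h. The intervals of the negative values of BCL2L11 and IER3 leave out 0. The AP-1 and immediate early genes had medians of 0.42, 0.22 and 0.12, against 1.06, and the ATF4-type genes 0.07, 0.20 and 0.24, against 0.41. Ribosomal protein genes had negative medians in all 4 libraries, -0.37, -0.63, -0.26 and -0.51, where the score divides by totals that include these genes. Death-promoting genes were at 0.07, 0.03 and 0.02, with 0, 3 and 0 members higher and 0, 2 and 2 lower. The differences between libraries were not tested.

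The phases of the ends differed between libraries. G2/M was called in 60.7% of the highest and 42.2% of the lowest 25% in DMSO 24 h, in 45.5% and 29.9% in paclitaxel 24 h and in 33.3% and 18.2% in DMSO 72 h, where the nearly equal shares of paclitaxel 72 h were 19.0% and 18.2%. In DMSO 72 h the G2/M genes had a median of 0.45 and the S phase genes of 0.36, against 0.13 and -0.08 in paclitaxel 72 h. The part of phase in the gene values of those libraries was not tested.

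**Figure D5:**
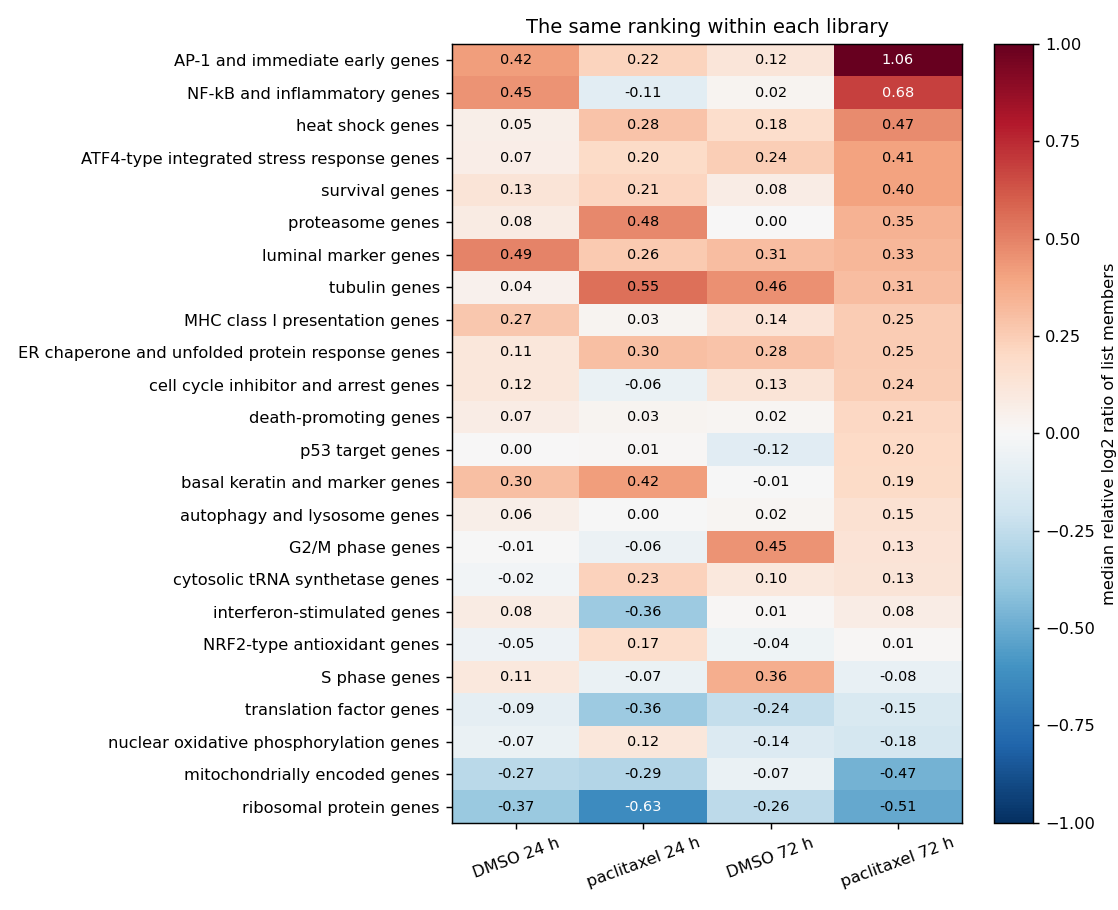
Median relative log2 ratio of each gene list between the highest and lowest 25% of the same ranking, made separately within the 4 libraries (columns); numbers are the medians and colours end at -1 and 1. The AP-1 and immediate early genes reach 1.06 in paclitaxel 72 h and 0.12 to 0.42 in the others, and the ribosomal protein genes are below 0 in each library.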

How the data were processed

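The authors deposited 1 table of raw UMI counts (unique molecular identifiers, which count captured RNA molecules) per library, genes by cell barcodes. Per the submitters' processing notes, Cell Ranger 2.0 and the GRCh38 build were used; the selection of barcodes was not stated. Cells with at least 20000 UMIs were ranked and compared as the report describes. Counts were summed over the cells of each bin, divided by the summed total and given per 1000000 (CPM). Log2 ratios had the median of all genes averaging 10 CPM or more over the compared bins subtracted. The 95% intervals are exact for a ratio of 2 Poisson counts, or Clopper-Pearson for shares, and cover counting error only. No test was made, because each group has 1 library and neither cells nor genes are replicates. Before phase calling with scanpy 1.11.5 (Python 3.11.15, numpy 2.4.6, scipy 1.17.1, pandas 2.3.3), each cell was thinned to 20000 UMIs. Doublets were marked with Scrublet and kept, and leaving them out was one of the alternatives. The ratio script was tested on simulated data.

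The members and the gene lists were chosen with earlier results of these data known. The rule for named genes took the 12 highest and 12 lowest ratios of genes averaging 50 CPM or more, leaving out the ranking, RPL, RPS and MT- genes, up to 6 members of the death and survival lists, up to 4 of each other list by size of ratio, and a few fixed genes. Other list members named in the report were picked after their values were seen. One member of the death list is counted but not reported here by name. Alternatives changed the depth minimum, the size of the ends, the genes in the ranking, the scaling, the cell filters and the weight of cells. Leaving out cells under 2% MT- UMIs was added after the data were seen.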

Additional observations from a re-analysis of the deposited data

Results flagged for a closer look

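List medians of paclitaxel 72 h and of another library had opposite signs, each at least 0.1 from 0, in 3 cases; lists with a median nearer to 0 in either library are not counted. The differences between libraries were not tested, with 1 library per group. The 10 CPM minimum was applied in each library, so the measured members of a list can differ. The NF-kB and inflammatory genes had a median relative log2 ratio of 0.68 over 23 members in the 72 h paclitaxel library. In the 24 h paclitaxel library it was -0.11 over 18 members. The nuclear oxidative phosphorylation genes had a median of -0.18 at 72 h of paclitaxel and of 0.12 at 24 h of paclitaxel. The p53 target genes had a median of 0.20 over 18 members at 72 h of paclitaxel and of -0.12 over 15 in the 72 h DMSO library.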

How the results depend on the processing

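Of 142 values of the main comparisons under an alternative, 131 stayed within the interval of the main value, or within 1.5 times for a count. The interval is over members for a list median and over cells for a share, and some were wide. For the difference in S phase share it was -17.7 to 2.95 percentage points, so the 2.08 with 10% of the cells at each end lay inside it. Of the list values 223 of 1387 moved further, and of the values of named genes 634 of 2451. With 10% of the cells at each end, 1595 genes were higher and 1524 lower, and the difference in median ribosomal share was -12.3 percentage points. Without subtraction of the median ratio, 1565 genes were higher and 235 lower. In another alternative, limited to the fewer genes averaging 50 CPM or more and with their median subtracted, 268 were higher and 160 lower. With the ranking made on one part of the UMIs and the levels read from the remainder, each ranking gene in cells ranked on the other 3 had a log2 ratio of 2.25 for ATF3, 1.64 for DDIT3, 2.30 for GADD45A and 2.15 for PMAIP1. With totals that left out RPL, RPS and MT- genes, 1167 genes were higher and 790 lower, and without cells under 2% MT- UMIs 790 and 497. KRT23 turned to -0.043 when GADD45A was left out of the ranking, and the median of the translation factor genes to 0.018 without subtraction of the median. Of 110 named genes past 1.5-fold, between 90 (cells called G1 only) and 110 stayed past it, over the alternatives run; their direction held in all of these except KRT23. The cause of these shifts was not tested. One library per group limits every value here, since the spread between cultures is unknown. No paired analysis was possible because each group has 1 library and the result comes from no test.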
